A study of Mus musculus with 2 samples.

Results

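The let-7 genes whose mature RNA comes from 1 locus, Mirlet7b, Mirlet7d, Mirlet7e, Mirlet7g and Mirlet7i, and their close relative Mir98 were examined in microRNA (miRNA) sequencing of mouse hippocampus. These 6 genes were chosen by name, as the let-7 genes with a mature form of their own, out of 2202 annotated miRNA genes, and all 6 were found in the tables. Small RNAs below 30 bases were sequenced from hippocampal tissue of female B6CASTF1/J mice aged 2 months, a first-generation cross of C57BL/6J with CAST/EiJ mice. All samples belong to 1 untreated group, biological replicate 2 and biological replicate 1, each with 1 library and its own tissue record but with a donor record in common. The labels speak of a hippocampal layer, not of which one, and do not say whether the replicates came from different animals. Differences between the libraries may therefore be technical, and the p-values below, which come from tests on read counts, cover counting error only and not the spread between replicates.

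The let-7 miRNAs are short regulatory RNAs that guide Argonaute proteins to messenger RNAs through the seed, bases 2 to 8 of the mature RNA. They are known as repressors of growth and developmental timing genes, among them Hmga2, Lin28a and Lin28b, and they accumulate as cells differentiate, including in brain. Each is cut from a hairpin by Drosha and then Dicer. LIN28 proteins bind the hairpin loop of many let-7 precursors, for which a GGAG sequence is a known contact, and block the processing.

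The mature 5p sequences are shown first because they explain why these genes can be counted apart from the rest of the family. They were taken from RefSeq (GRCm38.p6, which has the coordinates of mm10), where all 6 genes were matched. Each is written 5′ to 3′ with the seed in capitals, and let-7a and let-7c are added for comparison.
mmu-let-7g-5p: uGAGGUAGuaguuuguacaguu
mmu-let-7b-5p: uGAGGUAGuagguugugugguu
mmu-let-7i-5p: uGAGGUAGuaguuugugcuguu
mmu-let-7d-5p: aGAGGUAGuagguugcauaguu
mmu-let-7e-5p: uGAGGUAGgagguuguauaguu
mmu-miR-98-5p: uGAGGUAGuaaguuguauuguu
mmu-let-7a-5p: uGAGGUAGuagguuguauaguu
mmu-let-7c-5p: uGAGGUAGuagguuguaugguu

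All 6 genes carried the same seed, GAGGUAG, and a 5p form of 22 bases. Their 3p forms, which the counts do not separate, also had 22 bases, so no correction for length was made. Whether the different sequences were captured and amplified equally was not tested, and 2 libraries of 1 kind cannot show it. The differences between the 5p sequences lay outside the seed. Counted from 1 at the 5′ end, with the base of let-7a first, let-7e differed from let-7a by U9G alone. Let-7b differed by A17G and A19G, let-7d by U1A and U16C, let-7g by G12U and U18C, and miR-98 by G11A and A19U. Let-7i stood farthest from let-7a, by G12U, A17G, U18C and A19U. The closest relative of let-7b was let-7c, from which let-7b differed at 1 base (G17A, with the base of let-7b first). The closest relative of let-7i was let-7g, at 2 differences. Among the 2202 annotated hairpins, each of the 6 sequences occurred in 1 gene, whereas those of let-7a, let-7c and let-7f each occurred in 2 genes. The 3p forms of the 6 genes also occurred in 1 gene each. The longest stretch that a hairpin of the 6 shared with another annotated miRNA gene was 19 bases, for Mirlet7b with Mirlet7c-2 and for Mirlet7g with Mirlet7i. It was 17 bases for Mirlet7e with Mir7k and for Mir98 with Mirlet7b, and 14 bases for Mirlet7d with Mirlet7a-2. A full-length read without mismatches was thus specific to its gene among annotated hairpins. How many mismatches the mapping allowed was not given in the sources used here, so reads of let-7b and let-7c, or of let-7e and let-7a, which differ by 1 base, could be exchanged where a mismatch was allowed.

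The 16280072 reads of replicate 2 gave 5979247 sense counts on miRNA genes, and the 11666435 reads of replicate 1 gave 4517648. Reads that map to several places carried no gene and made up 48.4% of the reads of replicate 2 and 45.9% of those of replicate 1. All levels below are therefore shares of the reads that map to 1 place, and let-7a, let-7c and let-7f, whose 5p form has 2 genes each, enter them only through reads that tell those genes apart. The same holds for any other miRNA with several genes of 1 mature form. Ranks among all miRNA genes are thus ranks by such reads and do not rank the mature miRNAs. Of a list of 12 neuronal miRNA genes, those of miR-124, miR-9, miR-128, miR-132, miR-137 and miR-138, no gene was at 0 in both libraries. At least 10 counts in each library were reached by 8 of them, and no gene of miR-124 was among these 8. The list had sums of 52367 and 47523 counts per 1000000 miRNA counts (CPM) in replicate 2 and replicate 1, which came almost wholly from the 8 genes. The gene of miR-132 held 24242 CPM of this in replicate 2 and 16627 CPM in replicate 1, and the higher sum of replicate 2 rested on it. Among the 8, the genes of miR-9 were also higher in replicate 2, that of miR-137 was nearly equal, and those of miR-128 and miR-138 were lower. In bulk tissue, fewer cells of a type and less RNA per cell cannot be told apart.

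Together the 6 genes had 2279141 counts in replicate 2 and 1615852 in replicate 1, which made up 38.1% (95% Wilson interval 38.079 to 38.157) and 35.8% (35.723 to 35.812) of all counts on miRNA genes, or 36.9% ± 1.66 (SD, n = 2). As a share of all reads of the library, unmapped and multiply mapping reads included, they made up 14.0% of replicate 2 and 13.9% of replicate 1. The libraries thus differed by 2.35 percentage points of the miRNA counts and by 0.149 points of all reads. These points have different bases, since the shares of all reads are smaller throughout, and are not directly comparable. Within the let-7 family of 12 genes they held 98.3% ± 0.0306 of the counts. Because reads of let-7a, let-7c and let-7f that map to several places are not counted, this share does not rank the mature forms.

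Mirlet7g (ENSMUSG00000065440.1), the miRNA gene with the most counted reads in both libraries, had 774552 counts in replicate 2 and 536378 in replicate 1. These made up 12.95% of the miRNA counts in replicate 2 and 11.87% in replicate 1 (12.4% ± 0.764, SD, n = 2 here and for the genes that follow). It lies on the plus strand of chromosome 9, at positions 106178840 to 106178927 (mm10), in an intron of all 5 annotated Wdr82 transcripts that span it. Wdr82 encodes a subunit of histone methyltransferase complexes.

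Mirlet7b (ENSMUSG00000065564.1) had rank 2 in both libraries, with 618730 counts in replicate 2 and 454910 in replicate 1. Its share was 10.3% in replicate 2 and 10.1% in replicate 1 (10.2% ± 0.197). The gene is on the plus strand of chromosome 15 (85707319 to 85707403), within an exon of its non-coding host gene, Lncppara, which is also the host of Mirlet7c-2.

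Mirlet7i (ENSMUSG00000065406.3) had rank 4 among all miRNA genes in both libraries, with 415457 counts in replicate 2 and 269929 in replicate 1. Its share was 6.95% in replicate 2 and 5.97% in replicate 1 (6.46% ± 0.688). It lies on the minus strand of chromosome 10 (122985640 to 122985724) within D630033A02Rik, annotated as a transcribed processed pseudogene, where 1 of the 2 spanning transcripts has it in an exon and the other in an intron.

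Mirlet7d (ENSMUSG00000065453.1) had rank 5 in both libraries, with 253339 counts in replicate 2 and 205692 in replicate 1. It was the 1 gene of the 6 with the lower share in replicate 2, at 4.24% against 4.55% in replicate 1 (4.40% ± 0.224). It lies on the minus strand of chromosome 13 (48536012 to 48536114), in an exon of the long non-coding RNA gene 6720427I07Rik. Its mature 5p form is the only 5p form of the 6 genes that begins with A.

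Mirlet7e (ENSMUSG00000105758.1) had 176083 counts in replicate 2, at rank 6, and 121193 in replicate 1, at rank 8. These were 2.94% of the miRNA counts in replicate 2 and 2.68% in replicate 1 (2.81% ± 0.185). Its locus is on the plus strand of chromosome 17 (17830352 to 17830444), in an intron of both spanning transcripts of Spaca6, a gene known for its role in sperm and egg fusion.

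Mir98 (ENSMUSG00000065536.2) was by far the least abundant of the 6, with 40980 counts in replicate 2 and 27750 in replicate 1. It had rank 31 and 0.685% of the miRNA counts in replicate 2, and rank 36 and 0.614% in replicate 1 (0.650% ± 0.0503). It lies on the plus strand of chromosome X (151913214 to 151913321), in an intron of both spanning transcripts of Huwe1, which encodes a ubiquitin ligase. The genes in introns of protein-coding hosts (Mirlet7g, Mirlet7e and Mir98) and those in exons of non-coding hosts (Mirlet7b, Mirlet7d and, in 1 transcript, Mirlet7i) were mixed in the order of levels.

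**Figure D1:**
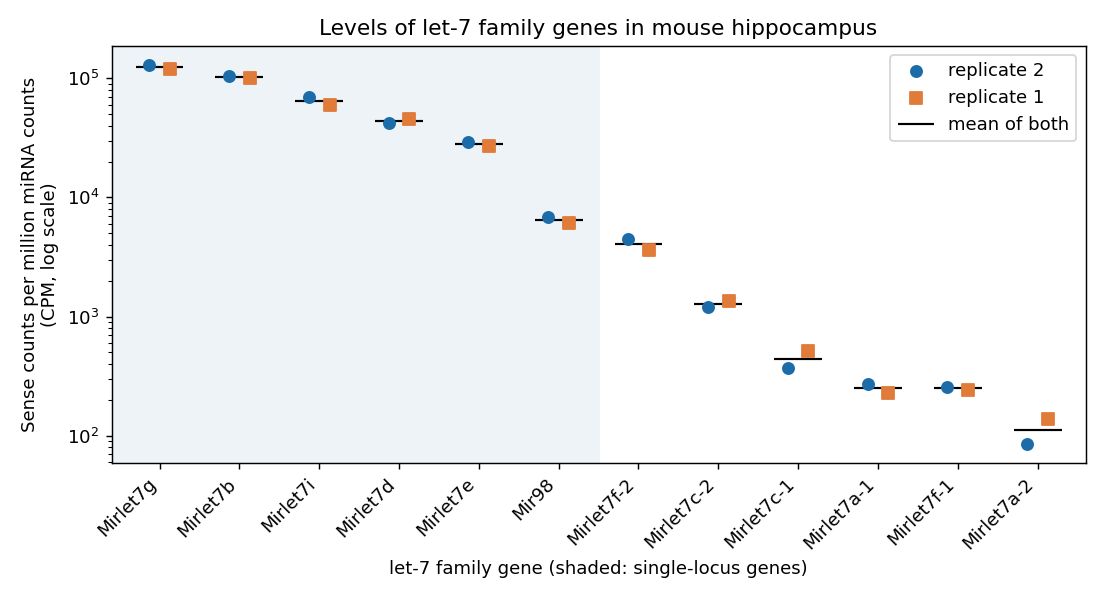
Sense counts per 1000000 miRNA counts (log axis) of the 12 let-7 family genes in replicate 2 (circles) and replicate 1 (squares), with the mean as a line. The 6 single-locus genes (shaded) span 124135 CPM for Mirlet7g to 6498 CPM for Mir98 and all lie above the 6 genes of let-7a, let-7c and let-7f, whose mature reads map to several places.

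The order Mirlet7g, Mirlet7b, Mirlet7i, Mirlet7d, Mirlet7e and Mir98 was the same in both libraries. For every pair of neighbours in it, the lower library of the more abundant gene lay above the higher library of the less abundant one. An exact permutation test of 2 values against 2 cannot go below a p of 0.333, so no p is given. The steps were uneven. Mirlet7g exceeded Mirlet7b 1.25-fold in replicate 2 and 1.18-fold in replicate 1, the smallest step among the 6. Mirlet7b exceeded Mirlet7i 1.49-fold in replicate 2 and 1.69-fold in replicate 1. The step from Mirlet7i to Mirlet7d was 1.64-fold in replicate 2 and 1.31-fold in replicate 1, and that from Mirlet7d to Mirlet7e 1.44-fold in replicate 2 and 1.70-fold in replicate 1. The largest step separated Mirlet7e from Mir98, at 4.30-fold in replicate 2 and 4.37-fold in replicate 1. From the top to the bottom of the order the fold was 18.9 in replicate 2 and 19.3 in replicate 1. Mirlet7g and Mirlet7e kept the closest proportion of any pair, 4.40-fold in replicate 2 and 4.43-fold in replicate 1.

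As shares of the counts of the 6 genes, Mirlet7g made up 34.0% in replicate 2 and 33.2% in replicate 1, and Mirlet7b 27.1% in replicate 2 and 28.2% in replicate 1. In replicate 2, Mirlet7i followed with 18.2%, Mirlet7d with 11.1%, Mirlet7e with 7.73% and Mir98 with 1.80%. In replicate 1 these were 16.7% for Mirlet7i, 12.7% for Mirlet7d, 7.50% for Mirlet7e and 1.72% for Mir98. No gene gained or lost more than 1.61 percentage points between the libraries, the value of Mirlet7d. On this scale, which does not depend on the other miRNAs, Mirlet7b and Mirlet7d had lower shares in replicate 2 and the other 4 genes higher ones.

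**Figure D2:**
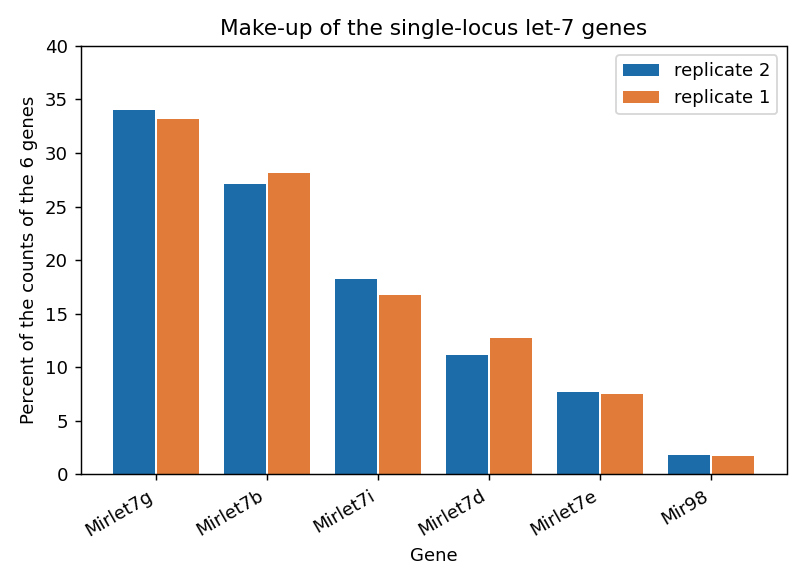
Percent of the summed counts of the 6 single-locus let-7 genes held by each gene (bars from 0), in replicate 2 and replicate 1. Mirlet7g and Mirlet7b lead in both libraries, at 34.0% and 27.1% in replicate 2 and 33.2% and 28.2% in replicate 1, and Mir98 stays below 2% in both.

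The duplicated genes came next in the family. Mirlet7f-2 had 26962 counts in replicate 2 and 16465 in replicate 1, and Mir98 exceeded it 1.52-fold in replicate 2 and 1.69-fold in replicate 1. Mirlet7c-2, Mirlet7c-1, Mirlet7a-1, Mirlet7f-1 and Mirlet7a-2 followed, from a mean of 1285 ± 109.2 CPM down to 112.2 ± 37.0 CPM (SD, n = 2). Mirlet7a-1 and Mirlet7f-1 overlapped, with 272.8 and 257.6 CPM in replicate 2 against 230.7 and 244.4 CPM in replicate 1. Outside the family, 2 further genes had a mature form with the let-7 seed. Mir7k had 7 counts in replicate 2 and 1 in replicate 1, and Mir1961 had none in either library, which leaves room for 0.502 CPM in replicate 2 and for 0.664 CPM in replicate 1. Let-7j, from Mir7j on chromosome 3, lacks the seed, since over its first 22 bases it differs from let-7i by G8U (base of let-7i first). Mir7j had 224 counts in replicate 2 and 120 in replicate 1. Intervals and such limits cover the counting error of reads only. Amplified reads are not independent molecules, so the intervals may be too narrow for counts of molecules.

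For each of the 420 genes that reached 10 counts in each library, Fisher's exact test (two-sided) set its counts against the remaining miRNA counts, with Benjamini-Hochberg adjustment over these 420. The test compares the reads of these libraries and no condition. Of the 6 genes, 5 were higher and 1 was lower in replicate 2, and all 6 passed the threshold of 0.05. Over all 420 genes 56.9% passed, 27.1% as higher and 29.8% as lower, and of the 93 genes at a mean of 1000 CPM or more 94.6% passed, so the count of 6 is not a result about these genes. The sizes were small. On the miRNA total Mirlet7i had the largest ratio of replicate 2 to replicate 1, 1.16, or 0.22 on the log2 scale (95% exact binomial interval 0.211 to 0.225). Mir98 followed with a log2 ratio of 0.16 (0.136 to 0.180), Mirlet7e with 0.13 (0.124 to 0.145) and Mirlet7g with 0.13 (0.121 to 0.131). With the miRNA total Mirlet7b differed least, at 0.04 (0.0338 to 0.0449, adjusted p = 2.0e-48 by Fisher's exact test). Its direction turned when the total of all reads replaced the miRNA total, to a log2 ratio of -0.04 (adjusted p = 1.2e-38 by the exact binomial test), and the split of the 6 genes became 4 higher and 2 lower. Mirlet7d was lower at a log2 ratio of -0.10 (-0.112 to -0.0954). The order of the sizes depended on the scaling. Mirlet7d differed least with TMM (-0.04 against 0.10 for Mirlet7b), with DESeq2 size factors (-0.04 against 0.11) and with the let-7 family left out of the total (-0.05 against 0.09), and it differed most with the total of all reads (-0.18 against 0.14 for Mirlet7i). On the miRNA total the 6 ratios lay between 0.931 and 1.16, and all 6 genes were within 1.25-fold. Among all 420 genes 53.3% were within 1.25-fold, and among the 93 abundant ones 60.2%. The median fold in either direction, also on the miRNA total, was 1.09 for the 6 genes, 1.19 for the 93 and 1.23 for the 420. These shares and medians were not computed with the other scalings. Over the 420 genes edgeR estimated a common coefficient of variation between the libraries of 0.312, which edgeR calls biological. It is 1 value for all these genes, and technical differences may be part of it. The 6 genes are themselves part of the denominator, and with the let-7 family left out of it their log2 ratios lay between -0.05 for Mirlet7d and 0.27 for Mirlet7i.

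**Figure D3:**
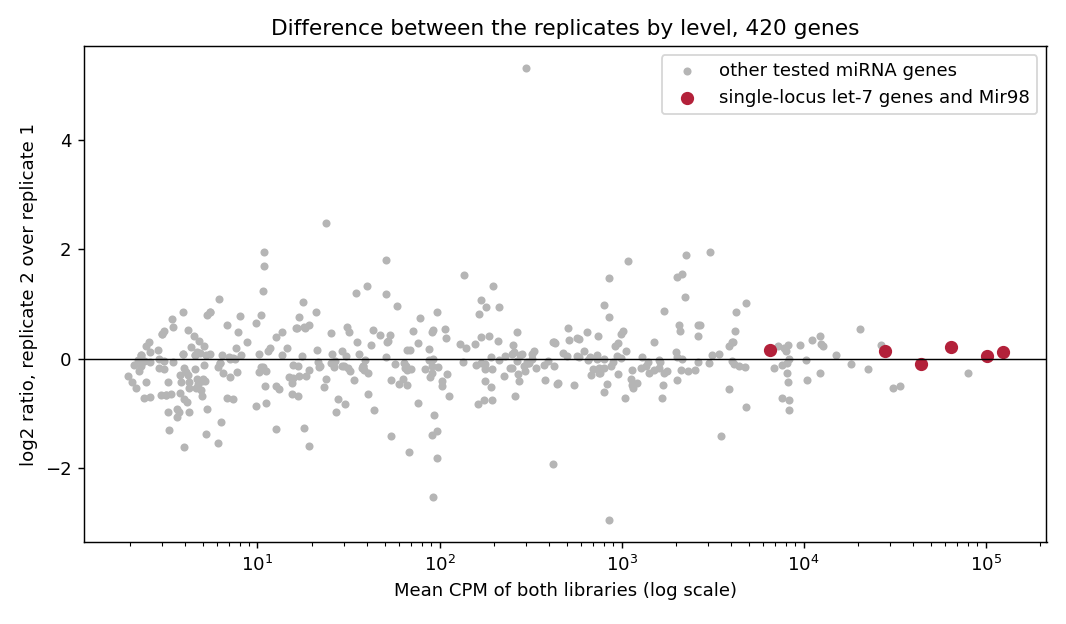
Log2 ratio of replicate 2 over replicate 1 against the mean CPM of both libraries (log axis) for the 420 tested miRNA genes, with the 6 single-locus let-7 genes in red. The 6 points lie between -0.10 (Mirlet7d) and 0.22 (Mirlet7i), near the line of no difference.

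Markers of other cell types also differed between the libraries. The 8 genes of the epithelial and sensory list had a sum of 206.4 CPM in replicate 2 against 632.2 CPM in replicate 1. In replicate 2 the 3 erythroid genes summed to 142.5 CPM, the 4 choroid plexus and ependyma genes to 2022, the 5 microglial and leukocyte genes to 2063, the 3 endothelial and mural genes to 22325 and the 2 oligodendrocyte genes to 6974 CPM. In replicate 1 the erythroid genes summed to 95.4 CPM, the choroid plexus and ependyma genes to 1501, the microglial and leukocyte genes to 1762, the endothelial and mural genes to 19223 and the oligodendrocyte genes to 6526 CPM. Except for the epithelial and sensory list, each of these lists had a higher sum in replicate 2 but also held a gene with fewer CPM there. A sum follows the most abundant genes of its list, so it gives no direction for a cell type, and no sum was tested. No gene of these lists was at 0 in both libraries, and the part of these lists in the differences of the let-7 genes was not tested.

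Mirlet7e, Mirlet7b, Mirlet7d and Mir98 lie within 10 kb of other miRNA genes on the same strand, whereas Mirlet7g and Mirlet7i have no such neighbour. Genes this close are known or thought to be cut from a shared primary transcript in several let-7 clusters. Mirlet7e lies 94 bases from Mir99b and 367 bases from Mir125a, relatives of the miR-100 and lin-4 families that accompany let-7 genes in several animals. The counts of Mir99b were 20258 in replicate 2 against 28175 in replicate 1, which gave a log2 ratio of -0.88 (95% interval -0.906 to -0.854). Mirlet7e outnumbered it 8.69-fold in replicate 2 and 4.30-fold in replicate 1, a proportion within a library that does not depend on the scaling. Mir125a had 105449 counts in replicate 2 against 85858 in replicate 1, or a log2 ratio of -0.11 (-0.121 to -0.0949). Mirlet7e outnumbered it 1.67-fold in replicate 2 and 1.41-fold in replicate 1. Both neighbours were thus lower in replicate 2 and Mirlet7e was higher, also with TMM and DESeq2 size factors and with the totals of all reads or without the let-7 family.

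On chromosome 15, Mirlet7b and Mirlet7c-2 are 621 bases apart. The counts of Mirlet7c-2 were 7220 in replicate 2 against 6153 in replicate 1, for which the log2 ratio was -0.17 (95% interval -0.223 to -0.124), and Mirlet7b outnumbered it 85.7-fold in replicate 2 and 73.9-fold in replicate 1. Mirlet7c-2 is uncertain, since its mature form has a second gene. On chromosome 13, Mirlet7d lies 1714 bases from Mirlet7f-1 and 2064 bases from Mirlet7a-1, which are uncertain in the same way. Mirlet7f-1 had 1540 counts in replicate 2 and 1104 in replicate 1 and did not pass the threshold (log2 ratio 0.08, 95% interval -0.0367 to 0.189, adjusted p = 0.267 by Fisher's exact test). It passed as higher with TMM (log2 ratio 0.14, adjusted p = 0.0265 by the exact binomial test), with DESeq2 size factors (0.14, adjusted p = 0.0216) and without the let-7 family in the total (0.13, adjusted p = 0.0375), and its log2 ratio was -0.00055 with the total of all reads (adjusted p = 1). Mirlet7a-1, with 1631 counts in replicate 2 and 1042 in replicate 1, was higher in replicate 2, at a log2 ratio of 0.24 (0.129 to 0.356). Mirlet7d outnumbered Mirlet7f-1 165-fold in replicate 2 and 186-fold in replicate 1. On chromosome X, Mir98 and Mirlet7f-2 are 785 bases apart in introns of Huwe1 transcripts. Both were higher in replicate 2 under every scaling tried, and the log2 ratio of Mirlet7f-2 was 0.31 (0.279 to 0.335). Mirlet7f-2 is uncertain like the other duplicated genes, since its mature form has a second gene.

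**Figure D4:**
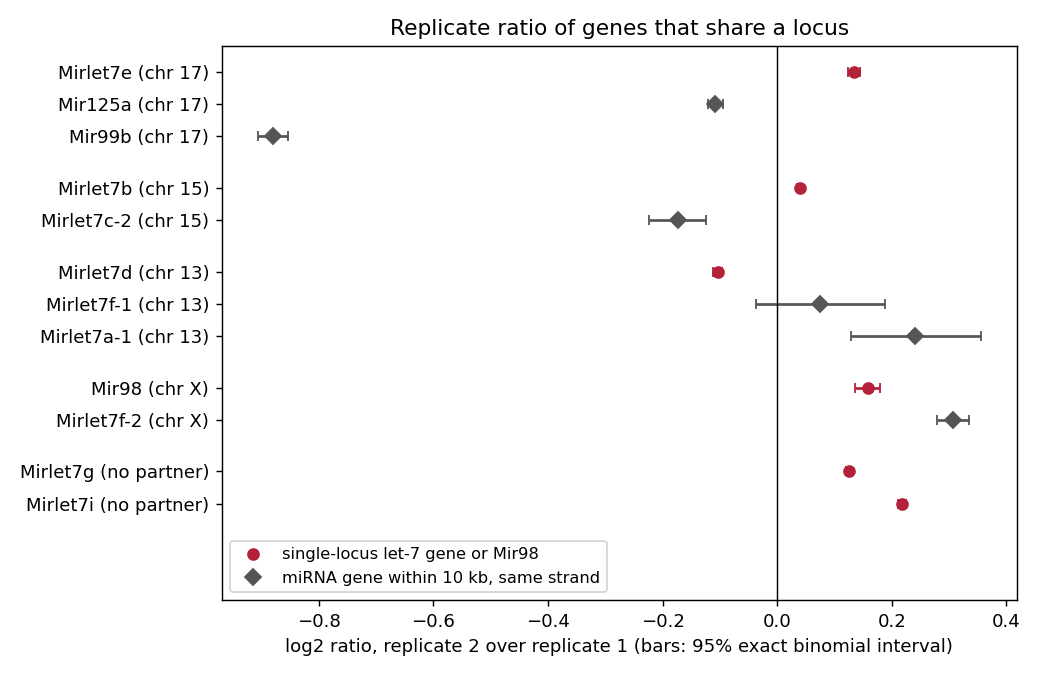
Log2 ratio of replicate 2 over replicate 1, with 95% exact binomial intervals as bars, for the 6 single-locus let-7 genes (red circles) and the miRNA genes within 10 kb on the same strand (grey diamonds), grouped by locus. Mir99b at -0.88 stands farthest from its neighbour Mirlet7e at 0.13, while Mir98 and Mirlet7f-2 lie on the same side of 0. The let-7a, let-7c and let-7f genes shown are uncertain, since their mature forms have a second gene.

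The genes most alike in level and replicate ratio were sought among miRNAs outside the family and these clusters, with a mean CPM within 2-fold of the let-7 gene and the smallest difference in log2 ratio over the 2 libraries. For Mir98 this was Mir143, a gene of the endothelial and mural list, among 33 candidates, at a log2 ratio of 0.15 against 0.16 for Mir98. For Mirlet7e it was Mir29a, among 6 candidates, at 0.07 against 0.13, and for Mirlet7d it was Mir23b, among 5, at -0.20 against -0.10. Mirlet7g and Mirlet7b had Mir139 as their only candidate and Mirlet7i had 2. Mir139 was the nearest gene of these too, yet it was lower in replicate 2, at a log2 ratio of -0.26 against 0.22 for Mirlet7i.

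Strand mattered for Mirlet7e. The tables also count reads without regard to strand and on the antisense strand. Another annotated miRNA gene, Gm25927, covers Mirlet7e on the opposite strand. In the column without regard to strand Mirlet7e stood at 0 in both libraries, and its sense count equalled 37.0% of the reads set aside there as ambiguous in replicate 2 and 36.2% in replicate 1. Gm25927 had no sense count in either library, while its antisense count equalled the sense count of Mirlet7e, 176083 in replicate 2 and 121193 in replicate 1. For the other 5 genes the column without regard to strand gave the sense count plus at most 7 counts.

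For 5 of the genes the stretches between the 2 mature arms, which form the loop of the precursor, are shown because LIN28 proteins contact this part. Each is written 5′ to 3′ from the mm10 hairpin with GGAG, searched on the sense strand of the RNA, in capitals.
Mirlet7g: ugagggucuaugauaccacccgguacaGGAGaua
Mirlet7b: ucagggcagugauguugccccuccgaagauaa
Mirlet7i: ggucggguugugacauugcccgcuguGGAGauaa
Mirlet7d: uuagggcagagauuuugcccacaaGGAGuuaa
Mirlet7e: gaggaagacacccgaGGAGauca

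Among these 5 genes, the motif lay between the arms in Mirlet7g, Mirlet7i, Mirlet7d and Mirlet7e, and its letters were not in that stretch of Mirlet7b. The remaining gene is not covered here, so these 5 give no count over all 6. Among the duplicated genes, 4 of the 5 with placed arms also held the motif there (Mirlet7a-1, Mirlet7c-1, Mirlet7f-1 and Mirlet7f-2, but not Mirlet7c-2), so it was not particular to the single-locus genes. Of the 644 RefSeq mouse hairpins with both arms placed, 8.07% held GGAG between the arms, and of all 2202 annotated hairpins 37.2% held it anywhere on the sense strand and 59.8% on either strand. Mirlet7e holds a second GGAG inside its mature 5p form. The hairpins of the 6 genes were 85 to 108 bases long, and their GC content was between 44.4% for Mir98 and 62.4% for Mirlet7e, with a median of 52.0% against 50.8% over all annotated hairpins. Mirlet7b lay between Mirlet7g and Mirlet7i in the order of levels. A match of letters is a description and was not tested for binding or for a relation to level.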

How the data were processed

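Each library has a deposited table of raw counts per miRNA gene (mm10, GENCODE M21), per the deposited notes, which the authors did not scale. Aligner, counter and adapter trimming were not given in the sources used here. The column roles (without regard to strand, sense, antisense) were read from the values, and sense counts were used. Arms of a hairpin are not separated. Totals of reads given to no gene stayed out of library sizes. How reads with CAST/EiJ variants were treated in mapping was also not stated there.

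CPM and percent refer to sense counts on miRNA genes, with mean and SD over 2 libraries. Log2 ratios are replicate 2 over replicate 1 on log2(CPM + 0.5). With 1 group, edgeR's quasi-likelihood test has no contrast, so Fisher's exact test was used for genes with 10 or more counts in each library, or the exact binomial test where another scaling replaced the totals. Fisher's exact test was also run on simulated counts that held counting error only. There 77.3% of tested genes set to a fold of 0.5 and 83.2% of those set to 2 were called in that direction. Of the unchanged genes 1.27% were called. Changes were set only in genes far below the levels of the 6 genes, and no spread between replicates was simulated. The simulation therefore does not bear on the calls of the 6 genes. Scalings and the common dispersion used edgeR 4.0.16 (TMM, intercept-only design) and DESeq2 1.42.0, and tests SciPy 1.17.1. The libraries differed far beyond sampling noise (chi-square per degree of freedom 411 over 420 genes), so they were kept as 2 samples. Hosts, positions and hairpins come from GENCODE M21, in which all 2202 identifiers were found, and mature sequences from RefSeq GRCm38.p6. With no genome sequence at hand, uniqueness was searched among annotated hairpins only. The genes and lists were chosen with earlier results of these data known. The genes named are the 6 genes, all genes with the let-7 seed or a let-7 name, miRNA genes within 10 kb on the same strand, and for each of the 6 the gene most alike. Gm25927, opposite Mirlet7e, is named outside this rule and was chosen after its values were seen. Loop sequences are given for 5 genes, and the remaining one is not reported here.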

Additional observations from a re-analysis of the deposited data

Results flagged for a closer look

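Antisense reads of Mirlet7b came to 7 counts in replicate 2, above the 3 counts that a count of 0 allows, and to 2 in replicate 1. They were picked out because the antisense column is outside the comparisons, and they equal 0.00113% of the gene's sense count in replicate 2. Mir98 had 2 antisense counts in replicate 2 and 1 in replicate 1, and the other 4 genes had none.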

How the results depend on the processing

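All 6 genes passed the threshold under TMM and DESeq2 size factors, both other totals, the minimum of 1 or 100 counts, no filter and thinning of the deeper library. The log2 ratio kept its sign in 58 of the 59 alternatives over the 6 genes. The exception was Mirlet7b, at -0.037 with the total of all reads, and its ratio reached 0.11 with DESeq2 size factors. Many of the alternatives could not turn a sign. Other count minima and no filter left the ratios as they were, and thinning and a pseudocount of 5 CPM hardly moved them. Only the other totals, size factors and count column moved the ratios by more. In the column without regard to strand Mirlet7e had no counts, so its level was 0 and no ratio could be computed there, and the other 5 genes passed. The smaller total of that column took Mirlet7g to 134489 CPM, Mirlet7b to 110594 CPM, Mirlet7d to 47605 CPM and Mir98 to 7041 CPM, and the share of the 6 genes in the family was 98.2%. The rank of 8 family genes moved there, because Mirlet7e and Mirlet7f-1 went to 0. Leaving out a replicate changed the rank of 0 to 2 family genes, Mirlet7a-1 and Mirlet7f-1, and of none of the 6. No paired analysis was possible because the series has 1 group, and a single library gives levels but no ratio. Scaling moved the median log2 ratio of the 420 genes by -0.07 to 0.07. Depth did not limit the 6 genes, since each had over 10000 counts in each library, but 48.4% of reads in replicate 2 and 45.9% in replicate 1 map to several places and limit every share.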
